A study of Mus musculus with 14 samples.

Results

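The genes described here are Nnt, Samhd1, Wdfy1 and Pisd-ps3, 4 of the 18193 genes with a probe set of their own, measured in mouse uterus on Affymetrix arrays. Every probe set with 1 of these 4 symbols as its single gene symbol was taken, which gave 18 of the 45037 probe sets that are not controls: 3 for Nnt, 5 for Samhd1, 5 for Wdfy1 and 5 for Pisd-ps3. The 4 genes were picked because their signals had been seen to differ between Folr4 mutant and wild-type uteri in these same arrays. Their genotype differences are therefore given as descriptions without a test. Of the 18 probe sets, 15 had a mean log2 signal at or above the median of all probe sets, a signal of 134, and entered the fit. A dim probe set of Nnt and a dim pair of Wdfy1 did not.

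Whole uteri were collected from C57BL/6 females at day 3.5 of gestation. There were 4 mutant uteri after folinic acid, 3 mutant uteri after saline, 3 wild-type uteri after folinic acid and 4 wild-type uteri after saline. Mutants were homozygous for the mutation written Folr4-/- in the labels, where they are also called KO. Folinic acid, a reduced folate, was injected intraperitoneally at 12.5 mg/kg in 2 doses, the first 10 days and the second 3 days ahead of mating, and the other females were injected with saline. The series asks how the genotype bears on the response of the uterus to folate taken before conception. The labels name the strain of all 4 groups as C57BL/6 without a substrain, and give neither the construction of the mutant allele nor the number of backcrosses. They call the replicates biological, and each array was counted as 1 sample. The sample titles share a number between 2 wild-type saline arrays and between 2 wild-type folinic acid arrays, and what that number stands for is not stated.

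Nnt encodes nicotinamide nucleotide transhydrogenase, an enzyme of the inner mitochondrial membrane that uses the proton gradient to make NADPH for glutathione and thioredoxin reduction. The C57BL/6J substrain carries a deletion within Nnt that other C57BL/6 substrains lack. Samhd1 encodes a hydrolase of deoxynucleoside triphosphates that is abundant in myeloid cells and restricts retroviruses there. Wdfy1 encodes a protein with WD40 repeats and a FYVE domain, which binds phosphatidylinositol 3-phosphate on early endosomes, and it acts as an adaptor in Toll-like receptor 3 and 4 signalling. Pisd-ps3 is a transcribed pseudogene related to Pisd, the mitochondrial phosphatidylserine decarboxylase that makes phosphatidylethanolamine. The reference annotation, GRCm38.p6, has Nnt on chromosome 13, Samhd1 on chromosome 2 and Wdfy1 on chromosome 1, and it has Pisd-ps3 on an unplaced sequence. Genome positions of the probes were not used here.

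The arrays had median signals between 129 and 157. The actin 3-prime to 5-prime signal ratio, a sign of RNA quality, lay between 1.54 and 3.12 in mutant folinic acid, 2.11 and 3.01 in mutant saline, 1.68 and 2.42 in wild-type folinic acid, and 1.72 and 3.64 in wild-type saline arrays. All 15 markers of uterine epithelium, stroma and smooth muscle, such as Hoxa10, Esr1, Krt8 and Myh11, stood at or above percentile 94.5 of signal over all probe sets, the level of Epcam. Of 8 markers of the preimplantation embryo, 1 (Eomes) passed the filter, as did 3 of 8 for ovary and oviduct, 3 of 8 for fat cells, 2 of 12 for lymphocytes and 1 of 7 for red blood cells. None of these markers passed limma's adjusted p of 0.05 in any of the 4 comparisons. The summed fat cell signal differed widely between arrays, at 1881 to 7648 in mutant folinic acid, 1789 to 18046 in mutant saline, 3711 to 26069 in wild-type folinic acid and 273 to 14122 in wild-type saline uteri, and its part in the results was not tested. The probe set of Folr4, the gene now named Izumo1r, was dim, with 6.14 to 70.2 in mutant and 13.5 to 72.4 in wild-type uteri, so it did not separate the labels. Erdr1, the single probe set past an adjusted p of 0.05 in either genotype comparison, read 5553 to 11929 in the 7 mutant arrays and 141 to 569.7 in the 7 wild-type arrays. The 2 genotypes did not overlap on Erdr1 in any array.

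Wdfy1 gave lower signal in mutant uteri on all 3 probe sets above the filter and under both injections. On its brightest probe set, 1437358_at, mutant folinic acid uteri read 672, 254, 836 and 561 and wild-type folinic acid uteri 1122, 1046 and 1051. After saline the same probe set read 367, 967 and 359 in mutant uteri and 1138, 967, 1019.5 and 1145 in wild-type uteri. The groups did not overlap under folinic acid. Under saline mutant replicate 2 reached the level of the lowest wild-type array, while the other two mutant arrays were far below it. The log2 difference, mutant minus wild type, was -1.01 ± 0.36 under folinic acid and -1.08 ± 0.36 under saline (SE of the fit), which is a signal 2.02-fold and 2.11-fold lower in mutants. Without mutant folinic acid replicate 2 the first of these was -0.66. In whole tissue, fewer cells that express a gene and less RNA per cell cannot be told apart, and this holds for every value given here.

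The other Wdfy1 probe sets above the filter went the same way. Probe set 1435588_at read 809, 275, 562 and 488 in mutant and 862, 897 and 767 in wild-type uteri after folinic acid. After saline it read 287, 726 and 208 in mutant and 1225, 904, 731 and 1191 in wild-type uteri. It was the saline groups that did not overlap on this probe set, and mutant replicate 1 of folinic acid that came into the wild-type range. Its log2 difference was -0.76 ± 0.38 under folinic acid (-0.47 without mutant replicate 2) and -1.49 ± 0.38 under saline. Probe set 1424749_at averaged 257 ± 79.6 in mutant (SD, n = 4) and 414 ± 22.98 in wild-type uteri (SD, n = 3) after folinic acid, without overlap, and its log2 difference was -0.74 ± 0.33. After saline it averaged 246 ± 135 in mutant (SD, n = 3) and 340.4 ± 82.5 in wild-type uteri (SD, n = 4), with a log2 difference of -0.57 ± 0.33. Mutant saline replicate 2, at 398, lay inside the wild-type range of 238 to 425 there, and the difference was -0.99 without it and -0.24 without mutant saline replicate 1. The dim pair, 1453426_a_at and 1447543_at, read 4.98 to 117 over the 14 arrays and did not separate the genotypes. Its log2 differences were not all negative. Those of 1447543_at were 1.24 ± 0.76 under folinic acid and 0.46 ± 0.76 under saline. Those of 1453426_a_at were -0.58 ± 0.89 and 0.42 ± 0.89.

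Nnt was also lower in mutant uteri on both probe sets above the filter. Probe set 1456573_x_at read 2963, 1815, 2134 and 2209 in mutant and 2564, 2887 and 3075 in wild-type uteri after folinic acid. It read 1877, 2448 and 1619 in mutant and 3101, 3383, 3354 and 2938 in wild-type uteri after saline. The saline groups did not overlap, and under folinic acid mutant replicate 1 lay among the wild-type arrays. The log2 difference was -0.34 ± 0.17 under folinic acid and -0.71 ± 0.17 under saline.

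The second Nnt probe set, 1416105_at, read 1790.4, 1384, 1337 and 1419.9 in mutant and 2094, 1800.3 and 1482 in wild-type uteri after folinic acid. After saline it read 1128, 2251 and 1554 in mutant and 2065, 2241, 1908 and 2353 in wild-type uteri. The groups overlapped under each injection, with mutant folinic acid replicate 1 and mutant saline replicate 2 inside the wild-type range, and the log2 differences were -0.27 ± 0.20 under folinic acid and -0.43 ± 0.20 under saline. Both values depended on single arrays. Leaving out replicate 1 of the wild-type folinic acid arrays gave -0.15 for the first. For saline it was -0.19 without mutant saline replicate 1 and -0.69 without mutant saline replicate 2. The lowest mutant array on either of these Nnt probe sets read 1128, and the dim one, 1432608_at, read 2.26 to 42.5 over all arrays. The log2 differences of the dim one were 0.26 ± 0.88 under folinic acid and -0.36 ± 0.88 under saline. Whether the arrays carry the C57BL/6J deletion, and whether it lies under any of these probes, was not tested.

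**Figure D1:**
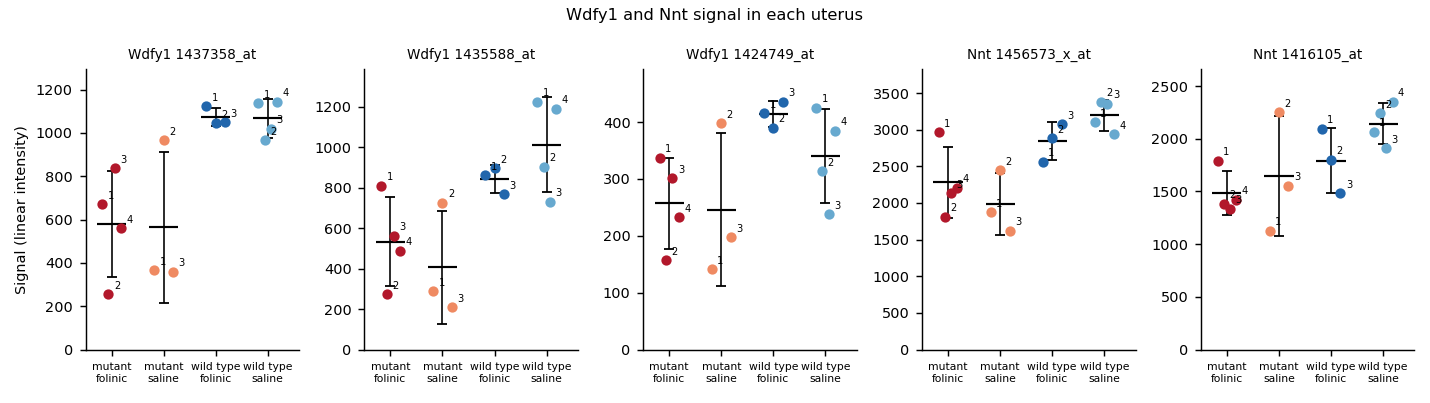
Signal (linear intensity, axis from 0) of the 3 Wdfy1 and 2 Nnt probe sets above the filter in each uterus, 1 panel a probe set, with mutant groups left of wild-type groups. Points are arrays with their replicate number, and bars show mean and SD; wild-type arrays of Wdfy1 1437358_at sit between 967 and 1145, and mutant arrays spread from 254 to 967.

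Pisd-ps3 split by probe set. On 3 probe sets built on a single transcript record of the array design, the mean signal was higher in mutant uteri under both injections, and on the other two it was not. Probe set 1453145_at read 3070.2, 1454, 1509.7 and 2365 in mutant and 1349, 1859 and 1827 in wild-type uteri after folinic acid. It read 2629.6, 2579 and 2104 in mutant and 1419, 1291, 1626 and 1107 in wild-type uteri after saline. The 3 mutant saline arrays all exceeded the wild-type ones, whereas after folinic acid replicates 2 and 3 of the mutants lay within the wild-type range. The log2 difference was 0.27 ± 0.24 under folinic acid and 0.85 ± 0.24 under saline. The first of these was 0.12 without wild-type folinic acid replicate 1, and it was 0.06, 0.42 and 0.40 without mutant folinic acid replicates 1, 2 and 3 in turn.

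The second probe set of that record, 1429452_x_at, read 1184, 727, 720.4 and 1469 in mutant and 711, 699 and 704 in wild-type uteri after folinic acid. After saline it read 1799.8, 1658 and 1131 in mutant and 647, 862, 820.1 and 672 in wild-type uteri. The groups did not overlap under either injection, as for 0.0311% of all probe sets, but under folinic acid mutant replicates 2 and 3 were only just above the highest wild-type array. The log2 difference was 0.47 ± 0.24 under folinic acid and 1.01 ± 0.24 under saline, a signal 1.39-fold and 2.02-fold higher in mutants. Without mutant folinic acid replicate 4 the first was 0.28. Probe set 1453144_at averaged 801 ± 327 in mutant (SD, n = 4) and 526 ± 65.3 in wild-type uteri (SD, n = 3) after folinic acid, and 1019 ± 175 in mutant (SD, n = 3) and 609 ± 180.4 in wild-type uteri (SD, n = 4) after saline. Its log2 differences were 0.51 ± 0.32 and 0.78 ± 0.32, and the groups overlapped under folinic acid only. The first was 0.80 without mutant folinic acid replicate 3 and 0.31 without mutant folinic acid replicate 4.

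The other pair of Pisd-ps3 probe sets was not higher in mutants under folinic acid, and the groups overlapped under both injections. Probe set 1434975_x_at averaged 3591 ± 520.3 in mutant (SD, n = 4) and 3713 ± 944 in wild-type uteri (SD, n = 3) after folinic acid, and 3224 ± 889.9 in mutant (SD, n = 3) and 2665 ± 149 in wild-type uteri (SD, n = 4) after saline. The log2 differences were -0.03 ± 0.20 under folinic acid and 0.23 ± 0.20 under saline. Under saline 2 of the 3 mutant arrays were above all wild-type arrays and 1 was below them, and the difference was 0.12 without mutant replicate 1, 0.09 without replicate 2 and 0.49 without replicate 3. Probe set 1439069_a_at had log2 differences of -0.05 ± 0.21 and -0.01 ± 0.21. A further 6 probe sets name Pisd-ps3 together with Pisd-ps1, 1 of them also with Pisd, and are not counted as members. Their log2 differences ran from -0.44 to 0.19 under folinic acid and from -0.10 to 0.41 under saline. In this array design the ending x_at marks probe sets in which some probes can match other sequences, so Pisd-ps3, Pisd-ps1 and Pisd may share signal. Nnt 1456573_x_at and Samhd1 1420273_x_at carry the same ending, so other sequences may enter their signal as well. Whether they do was not tested.

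**Figure D2:**
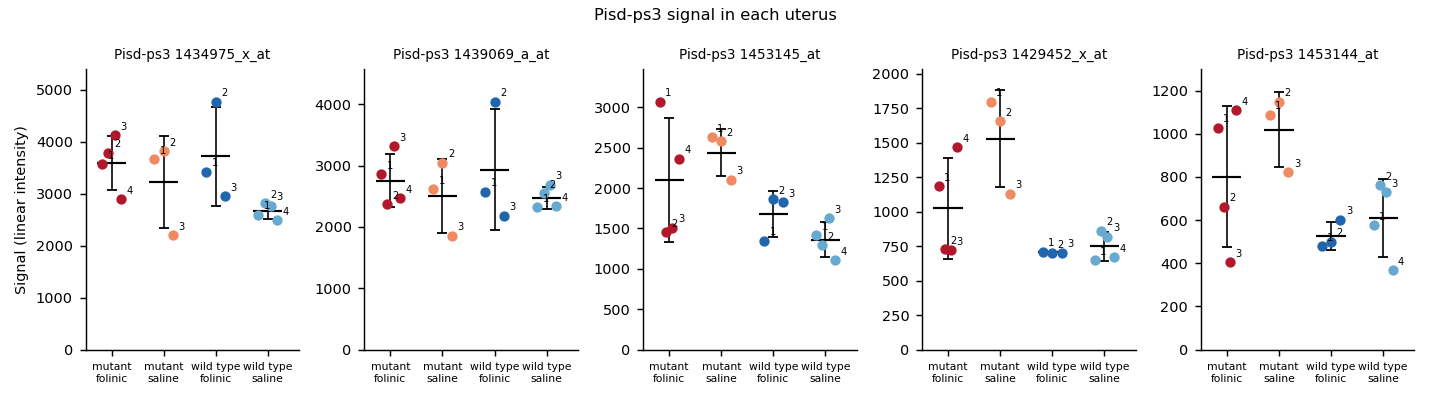
Signal (linear intensity, axis from 0) of the 5 Pisd-ps3 probe sets in each uterus, with mutant groups left of wild-type groups. Points are arrays with their replicate number, and bars show mean and SD. On 1453145_at, 1429452_x_at and 1453144_at mutant saline arrays lie above all wild-type saline arrays, and on 1434975_x_at and 1439069_a_at the groups overlap.

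Samhd1 had 1 probe set that set the genotypes apart after saline and 4 that did not. Probe set 1420273_x_at read 475, 436, 1193 and 233 in mutant and 525, 964 and 1220.1 in wild-type uteri after folinic acid. It read 225, 195 and 178 in mutant and 582, 766, 628 and 633 in wild-type uteri after saline. The saline groups were far apart with little spread in either, and after folinic acid mutant replicate 3 stood among the wild-type arrays. The log2 difference was -0.80 ± 0.40 under folinic acid and -1.71 ± 0.40 under saline, the second a signal 3.27-fold lower in mutants. Without mutant folinic acid replicate 4 the first was -0.44, and without mutant folinic acid replicate 3 it was -1.22.

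The brightest Samhd1 probe set, 1434438_at, read 2422, 1158, 1496 and 1510.4 in mutant and 880.3, 1214 and 1539 in wild-type uteri after folinic acid. After saline it read 866, 1121 and 906 in mutant and 960.2, 985, 1238 and 1969 in wild-type uteri. Its log2 difference was 0.43 ± 0.28 under folinic acid and -0.36 ± 0.28 under saline, with overlapping groups in both. Probe set 1418131_at behaved alike, at 0.57 ± 0.36 and -0.30 ± 0.36, and so did 1444064_at, at 0.33 ± 0.36 and -0.11 ± 0.36. These values leaned on single arrays. Without wild-type saline replicate 4 the saline differences were -0.14 for 1434438_at, -0.07 for 1418131_at and 0.19 for 1444064_at. Without mutant folinic acid replicate 1 the folinic acid differences were 0.22, 0.24 and 0.20. Without wild-type folinic acid replicate 1 that of 1434438_at was 0.22 and that of 1444064_at 0.03. Probe set 1420272_at was erratic in both genotypes, with 356, 732, 167 and 842 in mutant and 722, 1094 and 748 in wild-type uteri after folinic acid, and 213, 193 and 382 in mutant and 269.9, 136, 1034 and 216 in wild-type uteri after saline. Its log2 difference was -0.94 ± 0.60 under folinic acid, the most negative of the 5 probe sets, and -0.48 without mutant folinic acid replicate 3. Under saline it was -0.26 ± 0.60, and leaving out 1 array at a time gave -0.65 (without wild-type saline replicate 2) to 0.33 (without wild-type saline replicate 3). The platform annotation gives no transcript record for 1420273_x_at and 1420272_at, and it does for the other three.

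**Figure D3:**
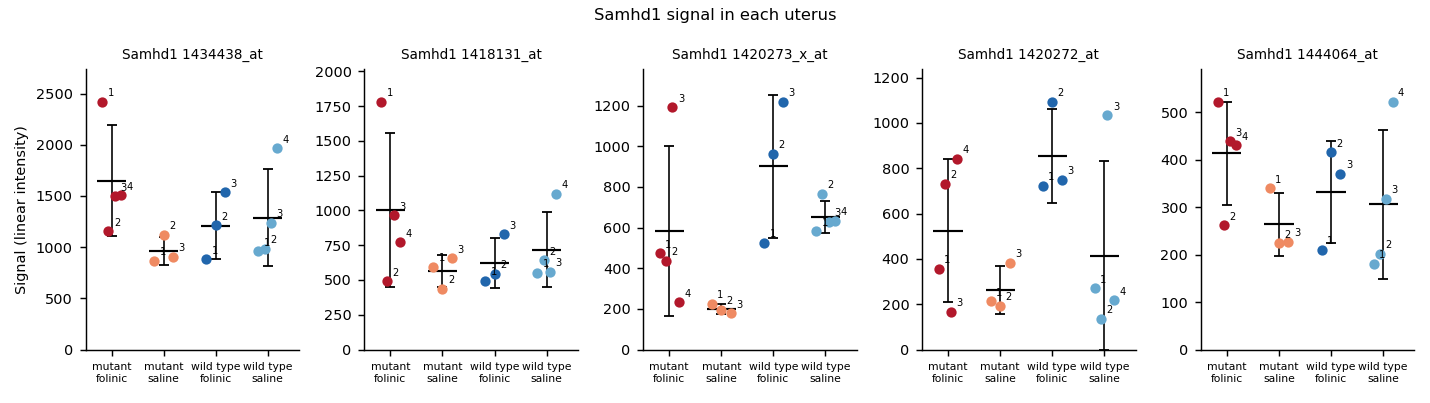
Signal (linear intensity, axis from 0) of the 5 Samhd1 probe sets in each uterus, with mutant groups left of wild-type groups. Points are arrays with their replicate number, and bars show mean and SD. On 1420273_x_at the mutant saline arrays sit between 178 and 225 and the wild-type saline arrays between 582 and 766, and on 1434438_at, 1418131_at and 1444064_at the 2 saline groups overlap.

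Set side by side, the probe sets above the filter gave lower signal in mutants throughout for Wdfy1 (3 of 3 under each injection) and Nnt (2 of 2). For Pisd-ps3, 3 of 5 were positive under folinic acid and 4 of 5 under saline. For Samhd1, 3 of 5 were positive under folinic acid and 0 of 5 under saline. The median over the 15 was -0.05 under folinic acid and -0.30 under saline, against -0.01 and -0.02 over all 22519 probe sets fitted. Under folinic acid 1 of the 15 was higher and 2 were lower in mutants without overlap, where 1.89% and 3.05% of all probe sets were. Under saline 3 were higher and 3 lower without overlap, where 2.06% and 2.36% of all probe sets were. Since the 4 genes were chosen on these differences, nothing is read from these counts. When the 7 mutant arrays were set against the 7 wild-type arrays regardless of injection, 0 of the 15 separated without overlap, against 0.0266% of all probe sets.

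**Figure D4:**
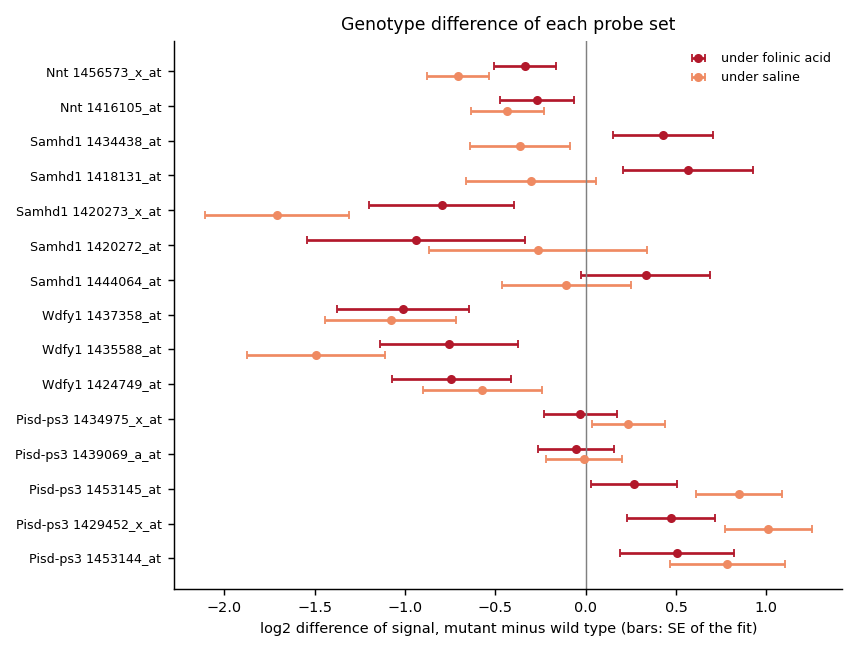
Log2 difference of signal, mutant minus wild type, for the 15 probe sets above the filter, under folinic acid (dark red) and under saline (orange). Points are differences of group means and bars are standard errors of the fit. All Wdfy1 and Nnt points lie below 0, the Pisd-ps3 points divide into 3 probe sets above 0 and a pair between -0.05 and 0.23, and Samhd1 1434438_at, 1418131_at and 1444064_at change sign with the injection.

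The number of mutant arrays inside the wild-type range differed by probe set. On the Wdfy1 probe sets 1437358_at and 1435588_at, the Nnt probe set 1456573_x_at and the Samhd1 probe set 1420273_x_at, 6 of 7 mutant arrays lay below the range of the 7 wild-type arrays and 1 lay inside it. The array inside was mutant saline replicate 2 for Wdfy1 1437358_at, mutant folinic acid replicate 1 for Wdfy1 1435588_at and Nnt 1456573_x_at, and mutant folinic acid replicate 3 for Samhd1 1420273_x_at. On Wdfy1 1424749_at and Nnt 1416105_at 4 mutant arrays lay below the range and 3 inside it. Mutant saline replicate 2 and mutant folinic acid replicate 1 were inside on both of these. The third array inside was mutant folinic acid replicate 3 on Wdfy1 1424749_at and mutant saline replicate 3 on Nnt 1416105_at. On each of the Pisd-ps3 probe sets 1453145_at, 1429452_x_at and 1453144_at, the mutant arrays within the wild-type range were folinic acid replicates 2 and 3. Neither was inside it on Wdfy1 1437358_at and 1435588_at, but replicate 3 was on Wdfy1 1424749_at and on Samhd1 1420273_x_at. Mutant folinic acid replicate 2 had the lowest Wdfy1 of its group on all 3 probe sets, at -2.08, -1.61 and -1.40 relative to the wild-type mean on the log2 scale. The actin ratio was 2.19 in that array, 1.54 in mutant folinic acid replicate 1, 3.12 in mutant folinic acid replicate 3 and 3.01 in mutant saline replicate 2. With that ratio as a covariate none of the 15 genotype differences under either injection changed sign.

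**Figure D5:**
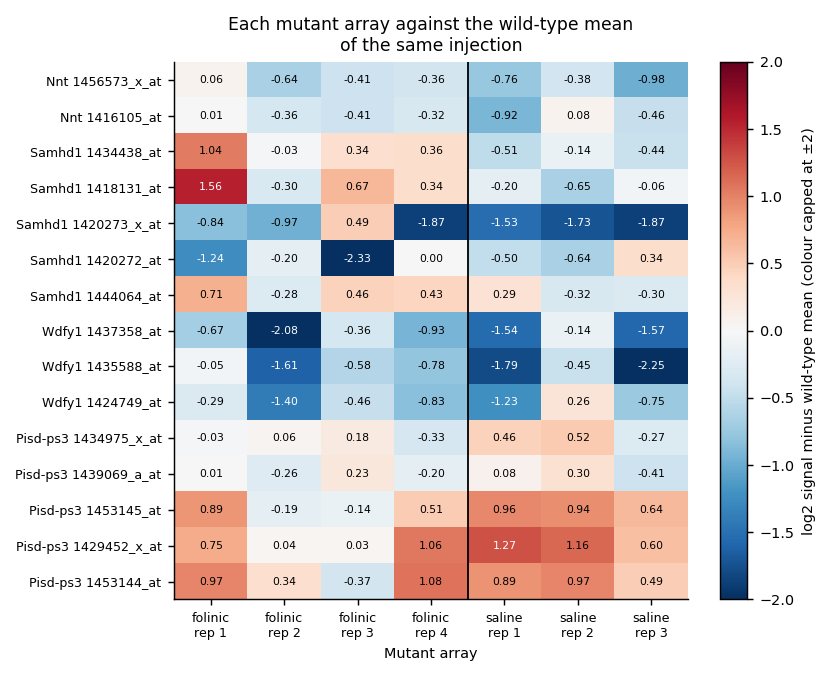
Log2 signal of each of the 7 mutant arrays minus the wild-type mean of the same injection, for the 15 probe sets above the filter, with the value printed in each cell and colours capped at ±2. Rows of Wdfy1 are negative except for mutant saline replicate 2 on 1424749_at (0.26), and mutant folinic acid replicates 2 and 3 are near 0 or below on 1453145_at and 1429452_x_at.

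Wdfy1 varied more between mutant than between wild-type uteri. Within groups, with the 2 injections pooled around their own means, the SD of log2 signal of 1437358_at was 0.78 in mutants and 0.10 in wild type. The first lay at percentile 96.3 of all probe sets fitted and the second at percentile 3.80, and the median probe set had 0.29 in mutants and 0.27 in wild type. For 1435588_at the SD was 0.78 in mutants and 0.28 in wild type, and for 1424749_at it was 0.61 and 0.29. The excess in mutants stood at percentiles 99.5, 98.7 and 95.4 of all probe sets. Samhd1 1420273_x_at had 0.76 in mutants and 0.42 in wild type, and 1418131_at had 0.63 and 0.45. The other Samhd1 probe sets varied more in wild type. In mutants and wild type, 1434438_at had 0.37 and 0.45, 1444064_at had 0.40 and 0.64, and 1420272_at had 0.897 and 0.996. Pisd-ps3 1429452_x_at had 0.46 in mutants and 0.16 in wild type. Pisd-ps3 1434975_x_at, 1453145_at and 1453144_at also varied more in mutants, while 1439069_a_at had 0.29 in mutants and 0.30 in wild type. For Nnt 1456573_x_at the values were 0.30 in mutants and 0.11 in wild type. These spreads come from the arrays used in choosing the genes and are given as descriptions.

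Whether probe sets of a gene moved together from uterus to uterus was examined within each genotype, over 7 arrays, by exact permutation over all pairings, two-sided, with p adjusted over the 48 relations computed. None of the 48 passed an adjusted p of 0.05, and the lowest was 0.057. Among mutants the 3 Wdfy1 probe sets had Pearson r of 0.87, 0.92 and 0.88 (Spearman rho 0.86, 0.86 and 0.82, exact permutation adjusted p for r of 0.099, 0.074 and 0.099). Leaving out the 2 arrays farthest from the median of the brighter probe set of each pair gave 0.88, 0.88 and 0.96. Among wild-type uteri r was 0.64, 0.61 and 0.44. The mutant uteri with much Wdfy1 signal on a given probe set were thus largely those with much on the others.

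For Pisd-ps3 the 3 probe sets of the single record had r of 0.84, 0.86 and 0.89 among mutants (rho 0.75, 0.64 and 0.89, exact permutation adjusted p for r of 0.11, 0.084 and 0.057). Leaving out the 2 farthest arrays gave 0.15, 0.54 and 0.77, so 2 of these relations rest largely on those arrays. Among wild-type uteri r was 0.02, 0.37 and 0.75. The other pair, 1434975_x_at and 1439069_a_at, had r of 0.86 among mutants and 0.88 among wild-type uteri, and 0.56 and 0.00 without the 2 farthest arrays. Between the pair and the 3, r among mutants ran from -0.27 to 0.05. Leaving out the 2 arrays farthest on 1439069_a_at gave 0.72, 0.52 and 0.62 for it with the 3. Leaving out the 2 arrays farthest on 1434975_x_at gave -0.75, -0.57 and -0.83 for that probe set. The 5 probe sets annotated to Pisd-ps3 thus fell into 2 blocks by r over all mutant arrays. Without the 2 arrays farthest on its own signal 1439069_a_at did not stand apart from the 3. The 3 probe sets with a positive difference under both injections were those of the single record.

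For Samhd1, 1434438_at, 1418131_at and 1444064_at ran together in both genotypes, with r of 0.84, 0.78 and 0.85 among mutants and 0.89, 0.90 and 0.66 among wild-type uteri (rho 0.68, 0.71 and 0.89, and 0.82, 0.79 and 0.39). Their exact permutation adjusted p for r ran from 0.074 to 0.34. The probe set apart after saline, 1420273_x_at, had r of 0.54, 0.50 and 0.57 with them among mutants and 0.38, 0.28 and 0.44 among wild-type uteri. It did not follow 1420272_at either, with r of -0.23 among mutants and 0.26 among wild-type uteri. The 2 Nnt probe sets had r of 0.56 among mutants and -0.04 among wild-type uteri (rho 0.50 and 0.071, exact permutation adjusted p for r of 0.45 and 0.99).

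Samhd1 is abundant in myeloid cells, and its level was set against macrophage markers. Of 12 such markers 10 passed the filter, among them Csf1r, Adgre1, C1qa and Lyz2, while Itgam and Cd163 were dim. Their summed signal was 13353 to 71035 in mutant folinic acid, 12966 to 22449 in mutant saline, 17155 to 21831 in wild-type folinic acid and 14239 to 34458 in wild-type saline uteri. The highest was mutant folinic acid replicate 1 and the next wild-type saline replicate 4, which were also the 2 highest arrays on the Samhd1 probe sets 1434438_at and 1418131_at. With the log2 sum, 1434438_at had r of 0.86 among mutants (rho 0.86) and 0.88 among wild-type uteri (rho 0.82), and 1418131_at had 0.91 among mutants (rho 0.82) and 0.80 among wild-type uteri (rho 0.64). The exact permutation adjusted p for r over 10 relations was 0.067, 0.054, 0.054 and 0.078. Leaving out the 2 farthest arrays gave 0.30 and 0.85 for 1434438_at and 0.77 and 0.92 for 1418131_at, so among mutants the first rests on those arrays. Probe set 1420273_x_at had r of 0.27 among mutants and -0.02 among wild-type uteri. The summed signal of the 2 lymphocyte markers above the filter was also highest in mutant folinic acid replicate 1, at 2187. In wild-type saline replicate 4 it was 1064, the highest of its group but below the highest wild-type folinic acid array, 1112. A relation of Samhd1 with lymphocyte signal was not tested.

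The macrophage markers lay on the same side of 0 as those Samhd1 probe sets in each genotype comparison. Under folinic acid 10 of 10 were higher in mutants with a median log2 difference of 0.44, and under saline 9 of 10 were lower with a median of -0.50, where 47.3% and 46.2% of all probe sets were above 0. None passed limma's adjusted p of 0.05 in either comparison, and at an unadjusted p under 0.05 there were 0 under folinic acid and 1 under saline, where 3.81% and 3.11% of all probe sets were. That 1 was Cd14, which went against the other markers under saline, at 0.67 ± 0.29 in mutants minus wild type. These counts were taken over all arrays, and the summed signal leaned on single ones. Mutant folinic acid replicate 1 had 71035, and the others of its group had 13353, 23192 and 23749. Wild-type saline replicate 4 had 34458, and the others of its group had 14239 to 19716. The part of macrophage signal in the Samhd1 differences was not tested.

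Folinic acid itself was tested within each genotype, with p adjusted over all 22519 probe sets. The mutant test shares the mutant saline arrays, and the wild-type test the wild-type saline arrays, with the genotype contrast on which the genes were chosen, so neither is independent of that choice. No member passed an adjusted p of 0.05 in limma's test in either genotype, and neither did any other of the 22519 probe sets fitted (0%). In mutants this 0 depended on single choices: 662 probe sets passed, none of them a member, without mutant folinic acid replicate 2, and 2 passed without a filter on low signal. At an unadjusted p under 0.05 there were 3 of 15 members in mutants, where 12.8% of all probe sets were, and 2 of 15 in wild type, where 2.71% were.

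In mutants, Samhd1 was higher after folinic acid on 5 of 5 probe sets, with log2 differences of at least 0.63, where 51.8% of all probe sets were positive. Probe set 1420273_x_at averaged 584 ± 419 after folinic acid (SD, n = 4) and 199 ± 23.7 after saline (SD, n = 3), without overlap as for 4.65% of all probe sets, with a log2 difference of 1.30 ± 0.40 and limma's p of 0.0053, adjusted p = 0.22. Probe set 1434438_at averaged 1647 ± 542 and 965 ± 137, also without overlap, with a log2 difference of 0.73 ± 0.28 and limma's adjusted p of 0.30. Without mutant folinic acid replicate 1, the array with the highest macrophage signal, the first was 1.32 and the second 0.52. In these mutants, with that array included, 9 of the 10 macrophage markers were higher after folinic acid, with a median of 0.68. In limma's test 0 of them passed an adjusted p of 0.05 and 3 had an unadjusted p under 0.05, as 12.8% of all probe sets did.

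Pisd-ps3 1429452_x_at, the remaining one of these in mutants, read 1025 ± 367 after folinic acid (SD, n = 4) and 1529.6 ± 352 after saline (SD, n = 3). Its log2 difference was -0.62 ± 0.24, with limma's adjusted p of 0.31. Both other probe sets of its record had negative values, -0.28 ± 0.24 and -0.44 ± 0.32, whereas the pair of other Pisd-ps3 probe sets had 0.19 ± 0.20 and 0.15 ± 0.21. For Wdfy1 the 3 values in mutants were 0.08 ± 0.36, 0.50 ± 0.38 and 0.14 ± 0.33, and for Nnt they were 0.20 ± 0.17 and -0.10 ± 0.20.

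In wild-type uteri, Samhd1 1420272_at averaged 855 ± 207 after folinic acid (SD, n = 3) and 414 ± 417 after saline (SD, n = 4). Its log2 difference was 1.48 ± 0.60, with limma's p of 0.027 and adjusted p of 1.0. Pisd-ps3 1434975_x_at had 0.45 ± 0.20, with limma's p of 0.042 and adjusted p of 1.0, and its 3 folinic acid arrays were all above the 4 saline arrays, as for 2.4% of all probe sets. Without wild-type folinic acid replicate 2 its difference was 0.26. The remaining 13 values in wild type ran from -0.27 to 0.39. For Wdfy1 1437358_at the difference was 0.01, with a 95% interval from -0.76 to 0.78, and for Nnt 1456573_x_at it was -0.17, with an interval from -0.54 to 0.20. These intervals show how large a response could have been missed.

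The genes whose signal was most like each member's were sought among 11268 others, by Pearson r of log2 signal over the 14 arrays on the brightest probe set of each gene. For Nnt the most alike was Wdfy1, and for Wdfy1 it was Nnt, with r of 0.84 (0.67 after group means were removed). Both were picked for a genotype difference, which enters this value. Within genotypes the same pair had r of 0.73 among the 7 mutants and -0.66 among the 7 wild-type uteri (rho 0.79 and -0.54, exact permutation adjusted p for r over 12 pairs of members of 0.38 and 0.42). Mid1, an X-linked gene, was the most opposite for both, with r of -0.90 for Nnt and -0.84 for Wdfy1. Next were Syne2 (-0.85), Mast4 (-0.80) and Naxd (-0.77) for Nnt, and Alkbh4 (-0.79), Mtrf1l (-0.76) and Naxd (-0.75) for Wdfy1. After group means were removed Mid1 had -0.76 for Nnt and -0.62 for Wdfy1. Syne2, Mast4 and Naxd then had -0.55, -0.93 and -0.81 for Nnt. Alkbh4, Mtrf1l and Naxd had -0.75, -0.72 and -0.82 for Wdfy1. Among the alike, F5 (0.82), Rfxap (0.81) and Nosip (0.81) followed for Nnt, and E2f4 (0.82), Cela3b (0.82) and Ambra1 (0.81) for Wdfy1. After group means were removed these were 0.84, 0.63 and 0.80 for Nnt, and 0.86, 0.83 and 0.70 for Wdfy1.

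For Samhd1 the most alike were Fermt3, which encodes an integrin activator of blood cells, with r of 0.95, the interferon-inducible Ifi209 with 0.94, the MHC class II gene H2-Eb1 with 0.93 and the chemokine receptor gene Cxcr3 with 0.93. After group means were removed these were 0.94, 0.92, 0.91 and 0.92. The most opposite were Wdr34 (-0.88), Srpk2 (-0.85), Limch1 (-0.84) and Prpf4 (-0.81). For Pisd-ps3, taken on 1434975_x_at, they were Amotl1 (0.85), Synpo2 (0.84), Degs1 (0.84) and Taf13 (0.83), and the most opposite were Slc25a13 (-0.86), Nhsl1 (-0.85), Vrk1 (-0.82) and Fndc1 (-0.80). These coefficients are descriptions over 14 arrays chosen as extremes of many, with no test.

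The genes beside the members on the chromosome were examined, up to 5 on each side with a probe set above the filter. Among the 10 neighbours of each of Nnt, Samhd1 and Wdfy1, limma called 0 in either genotype comparison, where it called 0.00444% of all probe sets in each. At an unadjusted p under 0.05 the counts were 0 for Nnt, 0 for Samhd1 and 1 for Wdfy1 under folinic acid, and 1, 0 and 0 under saline, where 3.81% and 3.11% of all probe sets had such a p. The medians of the log2 differences were -0.06, -0.09 and 0.03 under folinic acid and 0.01, 0.05 and 0.07 under saline. The 2 genes were Ap1s3, a subunit of a clathrin adaptor next to Wdfy1, with -1.01 ± 0.35 under folinic acid (limma's adjusted p = 1.0) and 0.39 ± 0.35 under saline, and Emb, which encodes embigin and lies near Nnt, with -0.23 ± 0.32 under folinic acid and 0.80 ± 0.32 under saline (limma's adjusted p = 1.0). No neighbour had r beyond -0.34 or 0.30 with its member. Pisd-ps3 is unplaced in the annotation and its neighbours were not examined.

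The pathways around the members did not show changes past limma's adjusted p of 0.05. Only 0.00444% of all probe sets passed it in each genotype comparison and 0% for folinic acid, so such counts say little. Below, rose and fell mean passing that threshold. At an unadjusted p under 0.05 there were 1 gene of mitochondrial NADPH supply, 3 of deoxynucleotide metabolism, 1 of nucleic acid sensing, 0 of the FYVE and endosomal list and 1 of the phosphatidylethanolamine list under folinic acid. Under saline there were 0, 1, 1, 0 and 2. The shares of all probe sets with such a p were 3.81% under folinic acid and 3.11% under saline. Folinic acid moved none of these lists' genes past the adjusted threshold in either genotype, and the medians of its log2 differences in mutants were -0.07, -0.18, 0.09, 0.03 and 0.10 for the lists in that order. Of 23 genes of mitochondrial NADPH supply and redox cycling, 0 rose and 0 fell in either genotype comparison, and the medians were -0.03 under folinic acid and 0.02 under saline. The smallest p under folinic acid belonged to Sod2, the mitochondrial superoxide dismutase, at 0.33 ± 0.15 (limma's adjusted p = 1.0), and Mthfd2, an enzyme of mitochondrial folate metabolism, had -1.23 ± 0.60. Under saline it was Mthfd1l, of the same pathway, at 0.34 ± 0.19.

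Of 21 genes that make, salvage or break down deoxynucleotides, the substrates of Samhd1, 0 rose and 0 fell. Under folinic acid 17 of 21 were lower in mutants, with a median of -0.26, and under saline 11 of 21, with a median of 0.00, where 47.3% and 46.2% of all probe sets were above 0. The genes with the smallest p under folinic acid were Tk1, a thymidine kinase, at -1.22 ± 0.41, Rrm2b, a ribonucleotide reductase subunit, at -0.37 ± 0.15, and Nudt1, which clears oxidised nucleotides, at -0.39 ± 0.18 (limma's adjusted p = 1.0 for each). Under saline it was Nme1, a nucleoside diphosphate kinase, at -0.98 ± 0.40.

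Of 19 genes of nucleic acid sensing and of Toll-like receptor 3 and 4 signalling, 0 rose and 0 fell, and the medians were 0.06 under folinic acid and -0.11 under saline. Sting1, the adaptor of cytosolic DNA sensing, had -0.71 ± 0.24 under saline (limma's adjusted p = 1.0), and Tlr3 had -0.39 ± 0.20. Under folinic acid the smallest p belonged to Rnaseh2b at -0.37 ± 0.17, followed by Rnaseh2c at -0.31 ± 0.17 and Rnaseh2a at -0.31 ± 0.18. After folinic acid in mutants Sting1 was at 1.26 ± 0.24, limma's adjusted p = 0.12. Of 25 genes of FYVE-domain proteins and endosomal phosphoinositide handling, 0 rose and 0 fell, with medians of 0.06 under folinic acid and -0.02 under saline. Of 18 genes of phosphatidylethanolamine and phosphatidylserine metabolism, 0 rose and 0 fell, with medians of -0.05 and -0.02. Among these, Pcyt2, which makes CDP-ethanolamine, had -0.40 ± 0.17 under folinic acid, and Etnk1, an ethanolamine kinase, had 0.74 ± 0.33 under saline and -0.52 ± 0.33 under folinic acid, with limma's adjusted p of 1.0 for each. The smallest p under saline belonged to Chpt1, at 0.33 ± 0.14, and it had -0.28 ± 0.14 under folinic acid.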

How the data were processed

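Whole uterus RNA from 14 females was hybridised to 1 array each. The authors deposited 1 linear intensity per probe set and array, made with MAS5, per the submitters' processing notes; its version is not given in the sources used here. The mean after trimming 2% at each end was 500.002 to 500.003 on every array, so each had been scaled. Detection calls were not used here. Gene names came from the platform annotation.

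Of 45101 rows, 64 controls were left out. Signals were raised to at least 1 (0.505% of values) and put on the log2 scale. The 22519 probe sets at or above the median mean were fitted with 4 group means in limma 3.58.1 (R 4.3.3), with a variance trend, 10 residual and 5.04 prior degrees of freedom, and Benjamini-Hochberg adjustment within each comparison. Exact permutations used scipy 1.17.1. The number of arrays limits the precision. Limma's p-values set a difference of group means against the spread between arrays, and the permutation p-values set r against its values over reordered arrays.

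The members, gene lists, marker lists and tests were chosen with earlier results of these data known. The genes named were all members, and for each the 4 genes with the highest and the 4 with the lowest r. Pathway genes were named from the 3 with the smallest p per list and comparison, and not all of these were named. Up to 5 neighbours on each side were examined.

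The alternatives were quantile normalization, an offset of 16, a filter keeping the upper 35 percent, no filter, no variance trend, a replicate block, the groups compared only, and leaving out each array. A covariate for the actin ratio was chosen after seeing the data. On data simulated for folinic acid in wild type over 22519 probe sets, 51% of 100 changes of log2 size 1 and 94% of 100 changes of log2 size 2 were recovered.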

Additional observations from a re-analysis of the deposited data

Results flagged for a closer look

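Of 30 groups of 4 arrays examined over the 15 probe sets, 2 held an array that stood apart from the others on linear signal. In both, the gap to the next array was 0.85 of the group's range. Chance alone gives about 1 in 20 where values are normally spread, which linear signal need not be. The gap was not taken on the log2 scale of the fits, so nothing is read from this count. On Samhd1 1418131_at wild-type saline replicate 4 read 1118, while the others read 553 to 639.9. That array also had the highest summed macrophage signal of its group, 34458 against 14239 to 19716 in the others. On Samhd1 1420272_at wild-type saline replicate 3 read 1034, while the others read 136 to 269.9, and that array had the highest actin 3-prime to 5-prime ratio of all, 3.64. The part of macrophage signal or of RNA quality in these values was not tested.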

How the results depend on the processing

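No member passed the threshold for folinic acid under any of the 22 alternatives run in either genotype; the lowest adjusted p was 0.11, for Samhd1 1434438_at in mutants without mutant folinic acid replicate 2. Over all probe sets, calls for folinic acid in mutants numbered 0 as reported, 2 without a filter (Boll and Neurl3, named after their values were seen) and 0 to 662 on leaving out an array, the 662 without mutant folinic acid replicate 2. Calls for genotype under saline numbered 1 as reported (Erdr1), 3 without a filter (with Neurl3 and a probe set with no symbol), 2 in a fit on the groups compared (with Samhd1 1420273_x_at, which had been chosen on that contrast) and 1 to 2 on leaving out an array. Calls for genotype under folinic acid numbered 1 as reported, 2 without a filter and 1 on leaving out any array. Same-numbered arrays of different groups had correlations from -0.34 to 0.35 over 19 pairs, with a median of 0.01. Differently numbered arrays had -0.47 to 0.47 over 54 pairs, with a median of -0.02. Replicate numbers were therefore not used as a pairing in the main fit. The check does not cover the title numbers shared within a group. With a replicate block the calls were 0 and 0 for folinic acid in wild type and mutants, and 1 and 1 for genotype under saline and under folinic acid. In wild type, folinic acid turned the sign of 2 values near 0 outside the left-out arrays: Samhd1 1434438_at was -0.06 as reported and 0.039 with the replicate block, and Wdfy1 1437358_at was 0.01 as reported and -0.00763 with quantile normalization. Leaving out an array in turn gave values on both sides of 0 in wild type for Samhd1 1434438_at (-0.25 to 0.16), Samhd1 1418131_at (-0.40 to 0.058), Samhd1 1444064_at (-0.016 to 0.49), Wdfy1 1437358_at (-0.036 to 0.046) and Pisd-ps3 1439069_a_at (-0.058 to 0.39), and in mutants for Nnt 1416105_at (-0.34 to 0.15), Wdfy1 1437358_at (-0.16 to 0.55), Wdfy1 1424749_at (-0.19 to 0.56), Pisd-ps3 1434975_x_at (-0.069 to 0.33) and Pisd-ps3 1439069_a_at (-0.048 to 0.31). The genotype differences that changed sign under some alternative were those of Samhd1 1420272_at and 1444064_at under saline, Pisd-ps3 1434975_x_at under folinic acid and Pisd-ps3 1439069_a_at under both injections. With the replicate block Samhd1 1444064_at was 0.059 under saline and Pisd-ps3 1434975_x_at 0.036 under folinic acid. None of the folinic acid values had passed the threshold, and the cause of the changes was not tested.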
